A study of Mus musculus with 17 samples.

Results

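Cholesterol synthesis and lipogenic gene expression was examined in mouse pancreatic islets through 39 genes of the sterol regulatory element-binding protein (SREBP) pathway. The genes were chosen by their place in the pathway, with no measured value in the rule, though earlier results of these data were known by then. All 39 were found and tested in both deposited tables, among 78239 gene identifiers in the first and 73212 in the second. They comprised 18 sterol synthesis enzymes, a group of 6 made of 5 SREBP regulators and a sterol carrier, 11 fatty acid synthesis genes and 4 genes on the side of the liver X receptors (LXR), which respond to surplus sterol.

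RNA of islets from male mice was sequenced in 17 libraries, which the labels call biological replicates. How many animals gave the islets of a library was not given in the sources used here, so the spread within a group is that between libraries. The first table held 12 libraries, from mice wildtype or homozygous for the knock-in *Pax4* R192H allele (*Pax4* HH in the labels), with 3 libraries per genotype on standard chow (SCD, 12 weeks old) and 3 per genotype after 4 weeks of high-fat diet (HFD, 16 weeks old). The second table held 3 libraries from *Pax4* βiKO mice, in which tamoxifen-induced Pdx1-CreERT2 deletes floxed *Pax4*, and 2 control libraries, after 8 weeks of HFD at 20 weeks of age. The controls carried the floxed alleles and received tamoxifen without Cre, so Cre and the loss of *Pax4* cannot be told apart in that comparison. Diet and age changed together in the first table and cannot be told apart either. *Pax4*, a transcription factor of β-cell development, was listed at 0 counts in all 17 libraries, so the genotype labels could not be checked on it.

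SREBP proteins are made as membrane precursors that SCAP carries out of the endoplasmic reticulum when sterol is scarce. INSIG proteins hold SCAP back when sterol is plentiful. Released SREBP-2, from *Srebf2*, activates genes of cholesterol synthesis and uptake, whereas SREBP-1, from *Srebf1*, mainly activates genes of fatty acid synthesis and desaturation. In islets, cholesterol in the plasma membrane and secretory granules is known to affect insulin secretion.

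Members of this pathway share promoter elements, which were looked for in the start-site windows of RefSeq (GRCm38.p6, 300 bases, 250 before and 50 after the start). A window was given for 31 of the 39 genes, with 40 windows in all, and both strands were searched. The classical sterol regulatory element TCACNCCAC was found in 1 of the 40 windows (2.50%) and in 1.24% of all 32851 windows. The nuclear factor Y box CCAAT was found in 25 of the 40 windows (62.5%) against 37.4% of all windows, and the E-box CACGTG in 8 (20.0%) against 7.15%. No matches of different motifs overlapped in these windows. The stretches from base -250 to base -41 are shown for *Hmgcs1* and *Elovl5*, which were lower in HFD-fed *Pax4* R192H islets, and for *Ebp* and *Abca1*, which moved in opposite directions with diet in that genotype. The *Hmgcs1* stretch lies at chr13:119690101-119690310 on the plus strand, *Elovl5* at chr9:77917115-77917324 on the plus strand, *Ebp* at chrX:8193553-8193762 on the minus strand and *Abca1* at chr4:53159936-53160145 on the minus strand. Capitals mark the sterol regulatory element (TCACCCCAC in *Hmgcs1*), the CCAAT box (ATTGG where it is on the opposite strand) and the E-box.
Hmgcs1: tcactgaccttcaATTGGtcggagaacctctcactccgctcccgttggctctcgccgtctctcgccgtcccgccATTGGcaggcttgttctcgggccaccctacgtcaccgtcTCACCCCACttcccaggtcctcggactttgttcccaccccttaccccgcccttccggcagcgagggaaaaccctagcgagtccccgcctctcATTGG
Elovl5: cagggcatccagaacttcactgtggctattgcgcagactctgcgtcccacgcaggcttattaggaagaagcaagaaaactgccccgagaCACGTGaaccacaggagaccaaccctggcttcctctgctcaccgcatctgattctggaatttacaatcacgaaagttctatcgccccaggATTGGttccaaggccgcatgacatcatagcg
Ebp: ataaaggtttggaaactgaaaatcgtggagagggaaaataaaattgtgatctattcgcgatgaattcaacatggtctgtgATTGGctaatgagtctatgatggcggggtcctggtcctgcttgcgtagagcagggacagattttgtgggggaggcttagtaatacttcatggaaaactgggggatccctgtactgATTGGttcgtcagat
Abca1: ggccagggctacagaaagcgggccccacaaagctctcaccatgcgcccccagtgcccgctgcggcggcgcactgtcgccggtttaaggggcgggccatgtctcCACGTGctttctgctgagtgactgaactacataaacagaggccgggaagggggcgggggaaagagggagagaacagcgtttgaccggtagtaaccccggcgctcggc
The windows of *Hsd17b7* and *Dhcr7* also held CCAAT boxes and an E-box.

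Libraries held 24268150 to 42679673 counts in the first table and 28618787 to 31887499 in the second. Levels are given as CPM, the count scaled to library size, after normalisation by the trimmed mean of M-values (TMM). Each table was scaled on its own, so levels are not compared between tables. A pair of features took 36.2% to 53.3% of the counts of a library in the first table, and in the second no feature took over 10%. Islet hormone genes were abundant in every library (*Ins1* 11236 CPM or more), while the 9 adipocyte markers summed to at most 29.4 CPM, with *Adipoq* and *Lep* at or near 0. Acinar cell markers, 22 genes of the exocrine pancreas, stood apart in 1 group. Their sum was 32054 to 87016 CPM in HFD-fed *Pax4* R192H libraries, 14108 to 21808 CPM in HFD-fed wildtype libraries and 11424 to 21944 CPM on SCD. In the second table it was 20876 and 93882 CPM in the controls and 14771 to 72608 CPM in the *Pax4* βiKO libraries. In tissue RNA of this kind, fewer cells of a type and less RNA per cell cannot be told apart.

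Within the first table the order of levels per kilobase of exon was led by the same 3 genes in all 4 groups. In SCD-fed wildtype islets *Acly*, which makes cytosolic acetyl-CoA, stood at 177 CPM per kilobase, *Insig1* at 38.4 and *Elovl5*, an elongase of polyunsaturated fatty acids, at 29.2. *Acacb*, the mitochondrial acetyl-CoA carboxylase, was lowest at 0.159 CPM per kilobase, and *Scd1*, a stearoyl-CoA desaturase abundant in liver and fat, stood at 0.889 against 15.5 for *Scd2*. *Acacb* and *Scd1* also varied most between libraries of a group, with median coefficients of variation of 44.7% and 39.5% over the 6 groups.

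The first comparison asked whether the *Pax4* R192H allele changed these genes on SCD. None of the 39 was called at an adjusted p below 0.05 with an absolute log2 fold change above 0.5, and none of the 19137 genes tested was (background 0.0%). At an unadjusted p below 0.05, 0 members were higher and 1 was lower, against 1.1% and 2.19% of all genes, and DESeq2 also called 0 members. *Srebf2* was 16.3, 18.2 and 16.0 CPM in wildtype and 16.9, 15.0 and 18.9 CPM in *Pax4* R192H libraries, so the groups overlapped. The log2 fold change was 0.01 for *Srebf2* (95% interval -0.53 to 0.54), -0.01 for *Srebf1*, 0.13 for *Scap*, -0.13 for *Insig1* and -0.01 for *Insig2*, each with an adjusted p of 1.0 in edgeR's quasi-likelihood test.

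The sterol synthesis enzymes had a median log2 fold change of -0.16 on SCD, with 15 of 18 below 0, where the median over all genes was -0.0038 and 50.7% of all genes lay below 0. Without SCD-fed wildtype library 1 the median was -0.02 with 8 of 18 above 0, so that the shift rested largely on that library. It was -0.08 with 6 of 18 above 0 without SCD-fed *Pax4* R192H library 3, and -0.26 without wildtype library 2. Macrophage markers moved in the same comparison, with 0 of 14 above 0, 5 lower without overlap and a sum of 120 to 180 CPM in wildtype and 80.3 to 85.5 CPM in *Pax4* R192H libraries. Stromal markers had 0 of 8 above 0, with sums of 129 to 398 and 145 to 242 CPM that overlapped. No marker of either list was called, and their part in the shift was not tested. *Idi1*, the isopentenyl-diphosphate isomerase, was the 1 gene whose groups did not overlap (percent of all genes not overlapping in this direction, 4.22%). Its values were 15.2, 12.7 and 16.2 CPM in wildtype and 11.4, 12.6 and 10.3 CPM in *Pax4* R192H libraries (log2 fold change -0.36, SE 0.15, edgeR adjusted p = 1.0).

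**Figure D1:**
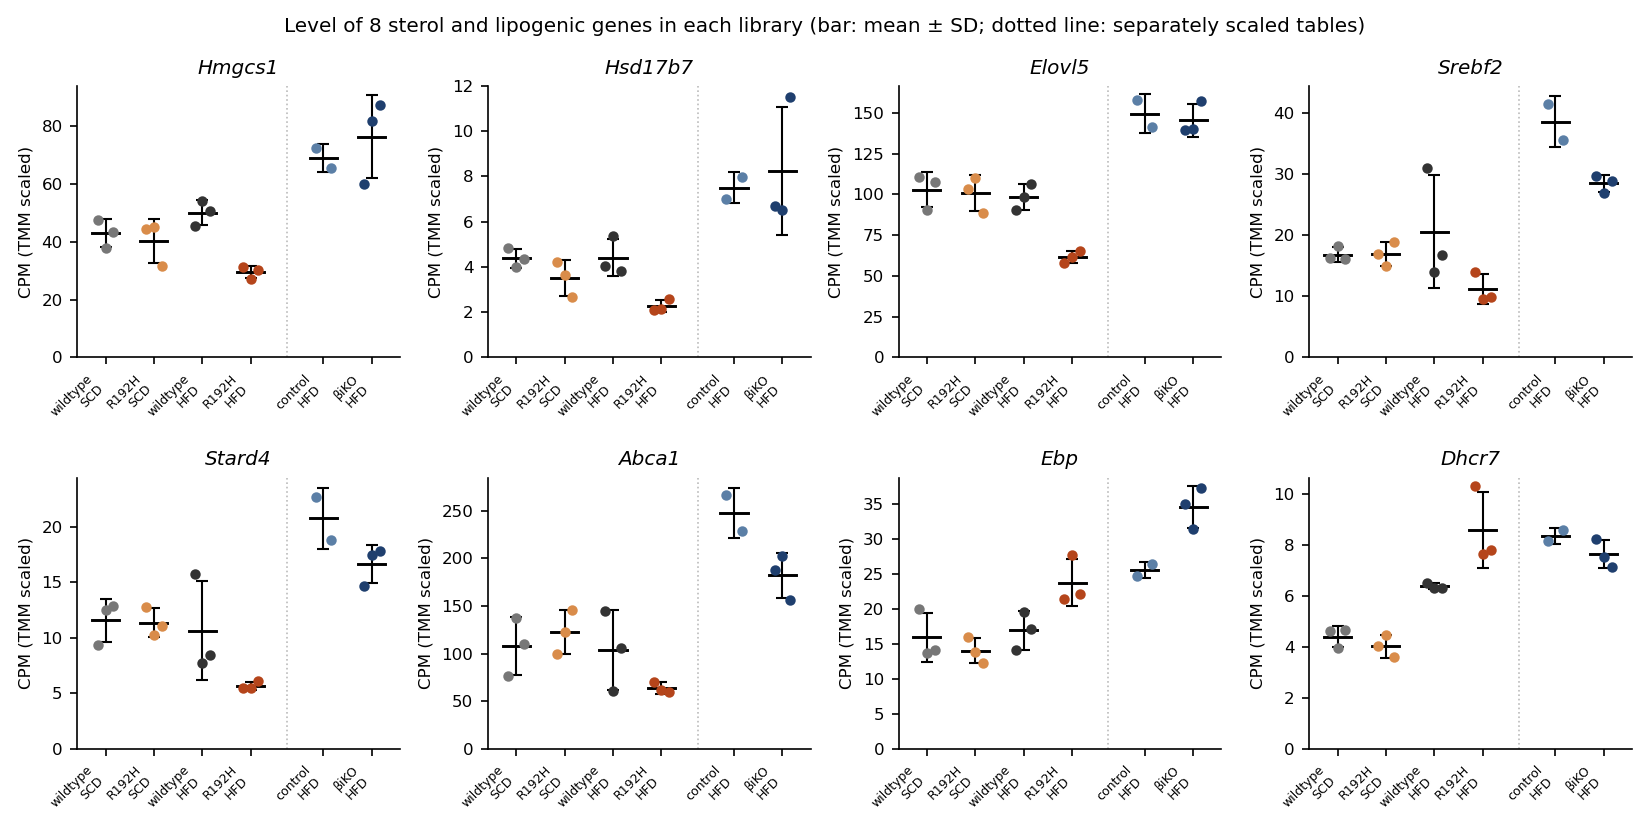
CPM (vertical axis, from 0) of 8 sterol and lipogenic genes in each of the 17 libraries (points), by group along the horizontal axis, with the group mean and SD as bars. The dotted line separates the tables, which were scaled separately. *Hmgcs1*, *Hsd17b7* and *Elovl5* of all 3 HFD-fed *Pax4* R192H libraries lie below all 3 HFD-fed wildtype libraries.

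On HFD, 3 of the 39 genes were lower in *Pax4* R192H than in wildtype islets and 0 were higher. The background was 0.82% of all genes called lower, 1.46% called higher and 2.28% in either direction. The 3 genes were *Hmgcs1*, which encodes the synthase of hydroxymethylglutaryl-CoA at the head of the mevalonate pathway, *Hsd17b7*, which encodes a 3-ketosteroid reductase of the later cholesterol pathway, and *Elovl5*. At an unadjusted p below 0.05, 11 members were lower and 2 higher, against 6.98% and 8.91% of all genes. With the replicate numbers as a block 0 members were called, beside 93 genes higher and 54 lower over the whole table. A model of the 2 groups compared called *Hmgcs1* and *Elovl5* but not *Hsd17b7*, beside 217 genes higher and 118 lower.

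*Hmgcs1* (chr13:119690379-119708260, GENCODE M21 annotation of GRCm38) was 45.3, 54.0 and 50.6 CPM in the wildtype libraries and 31.1, 27.1 and 30.3 CPM in the *Pax4* R192H libraries. No wildtype library was within the range of the *Pax4* R192H libraries, and the means were 49.97 ± 4.34 and 29.5 ± 2.12 CPM (SD, n = 3 each). This was a log2 fold change of -0.76 (SE 0.15, edgeR adjusted p = 0.0198), or 0.590 of the wildtype level. The promoter stretch of this gene printed above was the 1 member window with the sterol regulatory element.

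*Hsd17b7* (chr1:169949535-169969241) was a gene of low level, at 4.05, 5.36 and 3.83 CPM in wildtype and 2.11, 2.14 and 2.59 CPM in *Pax4* R192H libraries. The groups did not overlap, and the log2 fold change was -0.95 (SE 0.23, edgeR adjusted p = 0.047). Leaving out any 1 of the 6 libraries moved its adjusted p to between 0.0954 and 0.174, at a log2 fold change of -1.05 to -0.79.

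*Elovl5* (chr9:77917364-77984519) was 90.2, 98.3 and 106 CPM in wildtype and 57.7, 61.7 and 65.0 CPM in *Pax4* R192H libraries. All 3 mutant libraries were lower than every wildtype library, also than the 6 libraries on SCD, whose lowest value was 88.7 CPM. The log2 fold change was -0.68 (SE 0.13, edgeR adjusted p = 0.0166). Without HFD-fed wildtype library 3 or any HFD-fed *Pax4* R192H library, neither *Elovl5* (log2 fold change -0.72 to -0.62) nor *Hmgcs1* (-0.80 to -0.70) passed the threshold, with adjusted p-values of 0.0517 to 0.0935 and 0.0666 to 0.104. These fits had 1 library fewer.

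The regulators of the pathway did not pass the test on HFD. *Srebf2* was 31.1, 13.9 and 16.8 CPM in wildtype and 14.0, 9.61 and 9.96 CPM in *Pax4* R192H libraries, so wildtype library 1 stood apart and the groups overlapped. Its log2 fold change was -0.88 (SE 0.25, edgeR adjusted p = 0.0863), and -0.46 without that library (adjusted p = 0.304). *Stard4*, which encodes a cytosolic cholesterol carrier, was 15.8, 7.71 and 8.46 CPM in wildtype and 5.44, 5.50 and 6.08 CPM in *Pax4* R192H libraries. The groups did not overlap, and the log2 fold change was -0.91 (SE 0.24, edgeR adjusted p = 0.0691), or -0.51 without wildtype library 1 (adjusted p = 0.247). Without wildtype library 2 both passed (adjusted p = 0.0327 and 0.0356), and DESeq2 gave adjusted p-values of 0.0164 for *Srebf2* and 0.0127 for *Stard4*.

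*Srebf1* was 65.1, 48.4 and 64.2 CPM in HFD-fed wildtype and 44.0, 50.2 and 42.0 CPM in *Pax4* R192H libraries (log2 fold change -0.38, 95% interval -0.79 to 0.02). *Scap* had a log2 fold change of -0.09 (95% interval -0.39 to 0.21), *Insig1* of -0.26 (-0.62 to 0.11) and *Insig2* of 0.06 (-0.22 to 0.35). The *Insig1* value was between -0.34 and -0.13 without single libraries. With wildtype library 1 left out the *Scap* value was 0.07, so its sign rested on that library.

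Of the 39 genes, 29 had a log2 fold change below 0 on HFD (51.4% of all genes). Among them, 13 were lower without overlap (9.89% of all genes), and 2 further members were higher without overlap (13.0% of all genes). The 13 included 7 of the 11 fatty acid synthesis genes, whose median log2 fold change was -0.29, and 5 of the 18 sterol synthesis enzymes, whose median was -0.13 (all genes -0.01). The sterol median was -0.07 with 8 of 18 above 0 without wildtype library 2 and -0.06 without *Pax4* R192H library 2. The 2 higher genes act in the last steps of cholesterol synthesis. *Ebp*, the sterol Δ8-Δ7 isomerase, was 14.1, 19.5 and 17.2 CPM in wildtype and 21.4, 27.7 and 22.2 CPM in *Pax4* R192H libraries (log2 fold change 0.49, SE 0.18, edgeR adjusted p = 0.189). *Dhcr7*, which makes cholesterol from 7-dehydrocholesterol, was 6.51, 6.31 and 6.30 CPM in wildtype and 10.3, 7.64 and 7.80 CPM in *Pax4* R192H libraries (log2 fold change 0.43, SE 0.17, edgeR adjusted p = 0.221), and its value was 0.28 without *Pax4* R192H library 1. The sterol enzymes thus held values in both directions, as the plot of genotype differences shows.

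**Figure D2:**
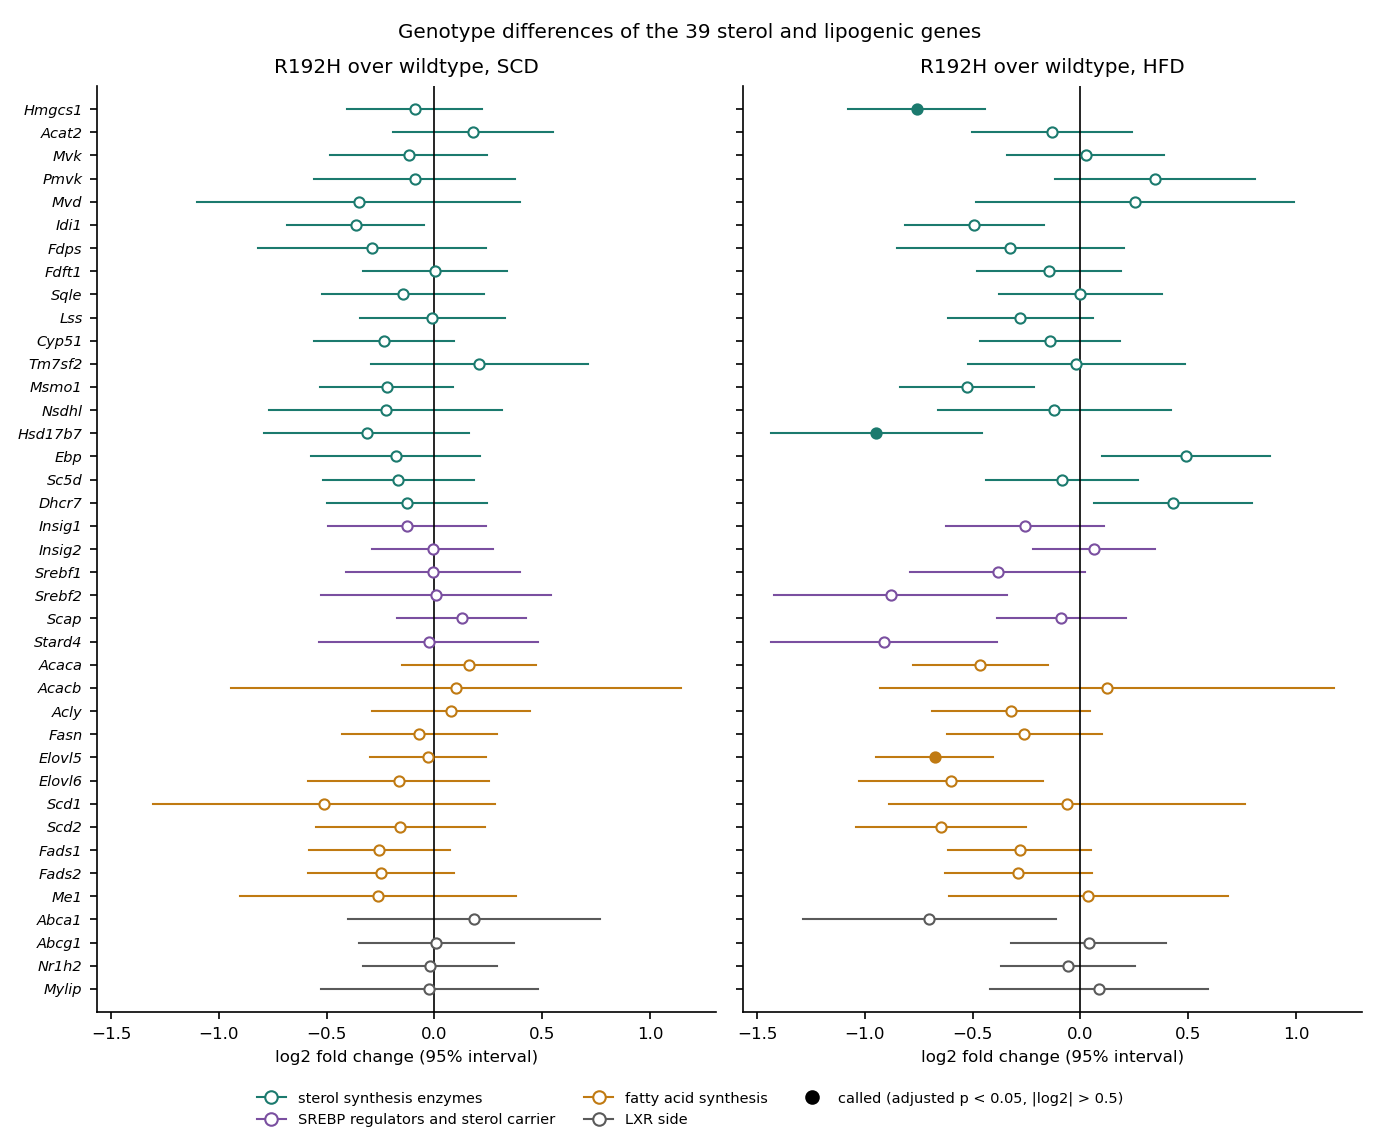
Log2 fold change of *Pax4* R192H over wildtype (horizontal axis) with its 95% interval for each of the 39 genes (listed vertically, coloured by role), on SCD (left) and on HFD (right). Filled points passed the threshold. There are 0 on SCD and 3 on HFD, *Hmgcs1*, *Hsd17b7* and *Elovl5*, all below 0.

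The acinar marker sum moved with genotype on HFD, and the genotype comparison does not take it into account. All 22 acinar markers had a log2 fold change above 0, 6 were called higher and their groups did not overlap for 21. The mean acinar marker level (log2 CPM) was 10.4, 9.04 and 9.11 in the HFD-fed *Pax4* R192H libraries. In the other libraries of the first table it was 7.69 to 8.53. The level thus largely marks the HFD-fed *Pax4* R192H group, and a fit with both can hardly separate them. With this level as a covariate, 0 of the 39 genes and 0 of all genes were called. *Hmgcs1* then had a log2 fold change of -0.78 (adjusted p = 0.508), *Hsd17b7* of -0.85 (0.622), *Elovl5* of -0.57 (0.569) and *Dhcr7* of 0.14, where the value of *Dhcr7* without the covariate was 0.43. Of the 8 β-cell markers, 4 were lower without overlap, 1 was called lower and 1 was higher without overlap (median log2 fold change -0.24, 4 of 8 above 0). Their sum was higher without overlap, at 64885 to 93254 CPM in wildtype and 98964 to 110085 CPM in *Pax4* R192H libraries. Of the 7 alpha cell markers 2 were called higher, with sums of 4901 to 7821 CPM in wildtype and 5714 to 7838 CPM in *Pax4* R192H libraries, and of the 4 duct markers 2 were higher without overlap, with sums of 64.5 to 80.5 and 88.0 to 104 CPM. Stromal markers were above 0 in 8 of 8 cases (median 0.26, sums of 105 to 153 and 141 to 201 CPM) and endothelial markers in 8 of 10 (median 0.12, sums of 219 to 263 and 236 to 264 CPM), with 0 called. The part of these cell types in the differences was not tested.

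Whether the genotype difference itself changed with diet was tested by the interaction. No member passed (0 of 39, background 0.131%), while 6 members were below 0 and 2 above 0 at an unadjusted p below 0.05 (4.38% and 6.84% of all genes), and DESeq2 called 0 members. The lowest adjusted p was 0.173, for *Elovl5* (log2 difference of fold changes -0.65, SE 0.18). The value was -0.67 (SE 0.21, adjusted p = 0.225) for *Hmgcs1*, -0.89 (SE 0.35, adjusted p = 0.358) for *Srebf2*, -0.38 for *Srebf1*, -0.22 for *Scap*, -0.13 for *Insig1* and 0.07 for *Insig2*. Without HFD-fed wildtype library 1 it was -0.46 for *Srebf2* and -0.058 for *Scap*, and without SCD-fed wildtype library 2 it was -0.24 for *Srebf1*. The lower levels of *Hmgcs1*, *Hsd17b7* and *Elovl5* on HFD are therefore not shown to be particular to that diet.

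Diet was compared within each genotype. These comparisons share their libraries with the genotype comparisons above and are not independent of them. In wildtype islets 0 of 39 genes passed (background 0.371%), and at an unadjusted p below 0.05 there was 1 higher and 1 lower member (6.86% and 8.37% of all genes). *Scd1* was 4.38, 3.94 and 4.73 CPM on SCD and 2.64, 1.60 and 1.33 CPM on HFD, without overlap. Its log2 fold change was -1.23 (SE 0.38, edgeR adjusted p = 0.155), and DESeq2 called it as the 1 member. *Dhcr7* was 4.62, 3.94 and 4.66 CPM on SCD and 6.51, 6.31 and 6.30 CPM on HFD (log2 fold change 0.53, SE 0.17, edgeR adjusted p = 0.170). *Mvk*, the mevalonate kinase, had a log2 fold change of 0.30 and *Acat2*, the cytosolic acetoacetyl-CoA thiolase, of 0.24, both without overlap and with adjusted p-values of 0.423 and 0.535. The value of *Mvk* was 0.15 without HFD-fed wildtype library 2. In wildtype islets 3 members were higher without overlap (8.47% of all genes) and 1 was lower (9.46%). Of the sterol synthesis enzymes 16 of 18 lay above 0 (51.1% of all genes), with a median of 0.16 (all genes 0.01), and 12 of 18 (median 0.03) without SCD-fed wildtype library 2. The median was 0.29 without SCD-fed wildtype library 1 and 0.09 with 11 of 18 above 0 without HFD-fed wildtype library 2.

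Markers of other cell types also moved with diet in wildtype islets. Of 14 macrophage markers 1 was above 0, 9 were lower without overlap and 2 were called lower (median log2 fold change -0.71), and their sum was 120 to 180 CPM on SCD and 82.0 to 92.1 CPM on HFD. Of 8 stromal markers 0 were above 0 and 5 were lower without overlap (median -2.14), with sums of 129 to 398 CPM on SCD and 105 to 153 CPM on HFD. Of 8 β-cell markers 7 were above 0 and 3 higher without overlap (median 0.32), with sums of 44422 to 58750 CPM on SCD and 64885 to 93254 CPM on HFD. Only 2 of the 9 adipocyte markers were at a level that could be tested, and 0 of these were above 0 and 1 was lower without overlap (median -0.99). The 9 summed to 4.99 to 12.3 CPM on SCD and 6.24 to 6.64 CPM on HFD. The part of these cell types in the differences of the sterol enzymes and of *Scd1* was not tested.

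In *Pax4* R192H islets 7 of the 39 genes changed with diet, 2 higher and 5 lower. This share stood beside a background of 9.75% of all genes called higher, 5.91% called lower and 15.7% in either direction, so the members' share was near that of genes in general. Without overlap, 6 members were higher (21.3% of all genes) and 11 lower (20.6%). The 2 higher genes were the late sterol enzymes *Dhcr7* and *Ebp*. The 5 lower genes were *Elovl5*, *Scd2* and *Acaca* of fatty acid synthesis, the carrier *Stard4*, and *Abca1*, the LXR target that exports cholesterol.

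*Dhcr7* was 4.02, 4.47 and 3.59 CPM on SCD and 10.3, 7.64 and 7.80 CPM on HFD, a fold change of 2.13 (log2 1.09, SE 0.17, edgeR adjusted p = 0.00135). *Ebp* was 16.0, 13.8 and 12.3 CPM on SCD and 21.4, 27.7 and 22.2 CPM on HFD (log2 fold change 0.76, SE 0.18, adjusted p = 0.0129). For both genes every HFD library was above every SCD library. *Pmvk* (0.64, adjusted p = 0.0569) and *Mvd* (0.91, adjusted p = 0.0876), kinase and decarboxylase of the mevalonate pathway, did not overlap either but did not pass.

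*Elovl5* was 103, 110 and 88.7 CPM on SCD and 57.7, 61.7 and 65.0 CPM on HFD (log2 fold change -0.71, SE 0.13, edgeR adjusted p = 0.00248). *Scd2*, a stearoyl-CoA desaturase, was 85.0, 74.5 and 67.9 CPM on SCD and 44.6, 46.0 and 41.1 CPM on HFD (-0.79, SE 0.18, adjusted p = 0.0108). *Acaca*, the cytosolic acetyl-CoA carboxylase, was 39.8, 35.8 and 43.7 CPM on SCD and 29.1, 25.1 and 23.4 CPM on HFD (-0.62, SE 0.15, adjusted p = 0.0114). In all 3 genes the diets did not overlap.

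*Stard4* was 12.8, 10.2 and 11.03 CPM on SCD and 5.44, 5.50 and 6.08 CPM on HFD (log2 fold change -1.0, SE 0.24, edgeR adjusted p = 0.0137). *Abca1* was 99.2, 123 and 146 CPM on SCD and 70.6, 61.4 and 59.6 CPM on HFD (log2 fold change -0.94, SE 0.27, adjusted p = 0.0321), a call that held without SCD-fed *Pax4* R192H library 1 and was lost without each of the other 5 libraries (adjusted p = 0.0623 to 0.114). For the other LXR-side genes the log2 fold change was 0.13 for *Abcg1*, 0.11 for *Nr1h2* and 0.07 for *Mylip*, with overlapping groups. Without single libraries these values were 0.031 to 0.24, 0.048 to 0.18 and -0.031 to 0.20. By role, 10 of the 11 fatty acid synthesis genes lay below 0 (median -0.21) and 11 of the 18 sterol enzymes above 0 (median 0.14), beside a median of -0.06 over all genes, of which 53.6% lay below 0 and 46.4% above. Without HFD-fed *Pax4* R192H library 1 the medians were -0.42 and 0.087, and without SCD-fed *Pax4* R192H library 3 the sterol median was 0.091.

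**Figure D3:**
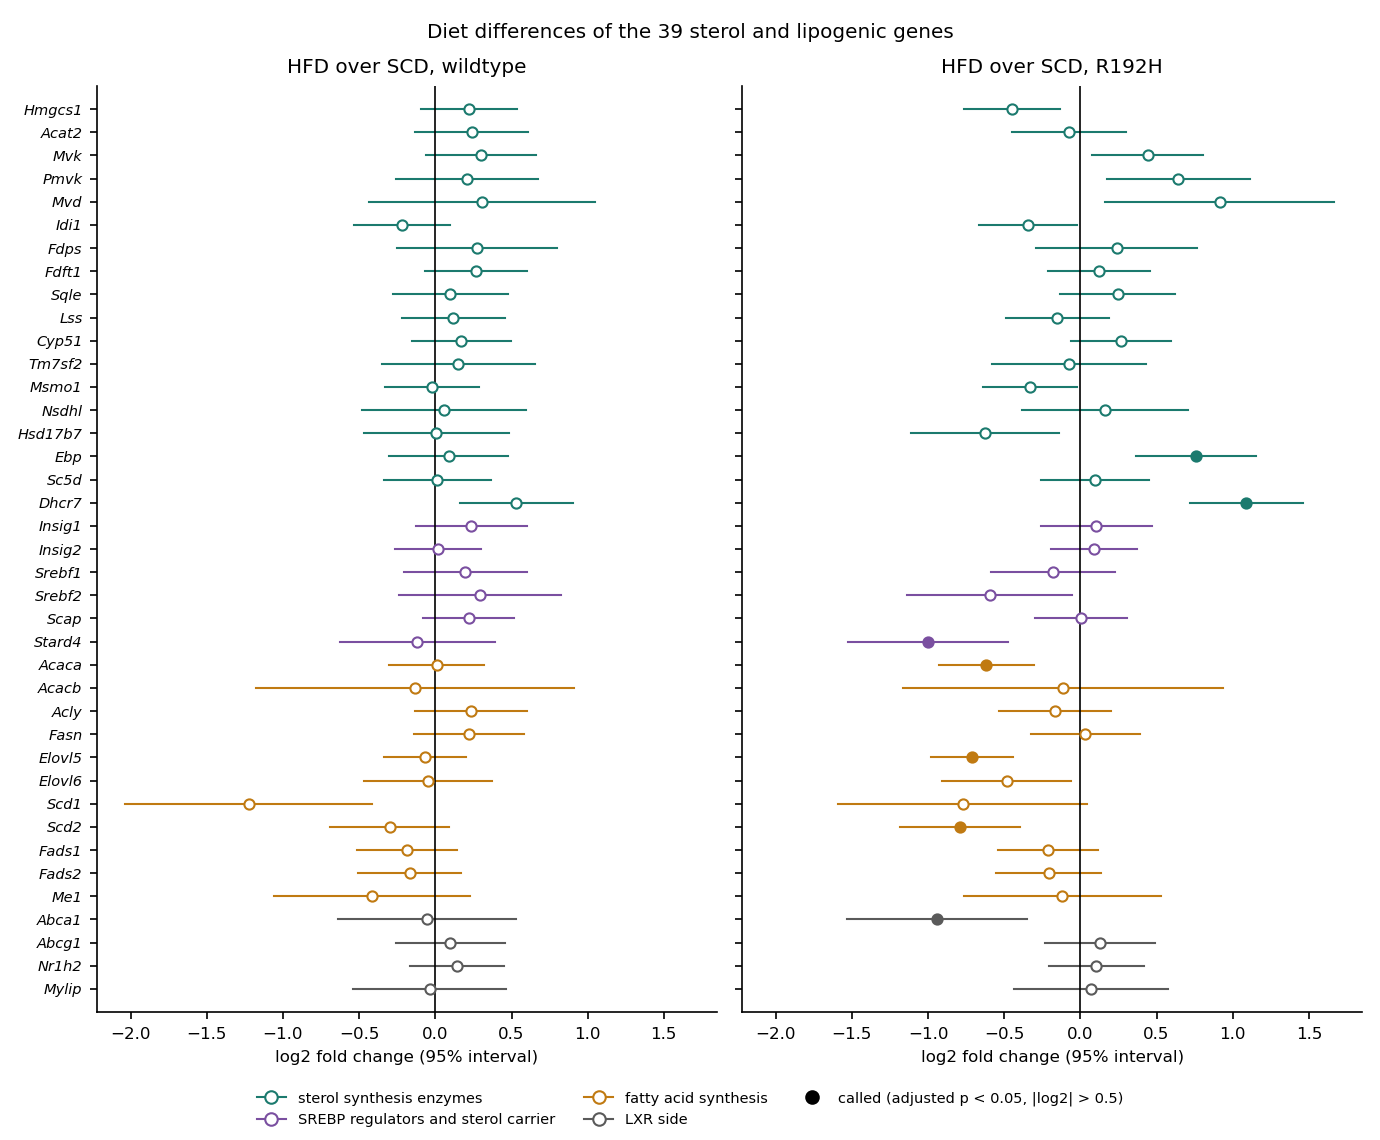
Log2 fold change of HFD over SCD (horizontal axis) with its 95% interval for each of the 39 genes (listed vertically, coloured by role), in wildtype (left) and *Pax4* R192H (right) islets. Filled points passed the threshold, 0 in wildtype and 7 in *Pax4* R192H islets, *Dhcr7* and *Ebp* above 0 and *Stard4*, *Acaca*, *Elovl5*, *Scd2* and *Abca1* below 0.

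Of the 22 acinar markers, 20 were called higher with diet in *Pax4* R192H islets and 0 in wildtype islets. Of the stromal markers 1 of 8 was above 0 and 4 were lower without overlap (median log2 fold change -1.26), and of the β-cell markers 3 were called higher and 1 lower. Of the alpha cell markers 2 of 7, of the duct markers 1 of 4 and of the endothelial markers 1 of 10 were called higher, the last with 4 higher without overlap, and their part in these changes was not tested. The acinar level largely marks the HFD-fed *Pax4* R192H group, as given above. With it as a covariate 0 members were called. The genes called over the whole table then came to 122 higher and 20 lower, in place of 1865 and 1131. In that fit the log2 fold change was 0.75 for *Dhcr7*, 1.01 for *Ebp*, -0.58 for *Elovl5*, -0.94 for *Scd2*, -0.83 for *Acaca*, -0.94 for *Stard4* and -1.02 for *Abca1*. Without single libraries the count of members was 3 to 8, with 3 without HFD-fed *Pax4* R192H library 2 and 4 without library 3 of that group. *Elovl5* and *Dhcr7* were called without any 1 of the 6 libraries.

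The *Pax4* βiKO comparison asked whether loss of *Pax4* in adult islets moved the same genes. None of the 39 passed (background 0.0893%), 4 were higher and 4 lower at an unadjusted p below 0.05 (6.23% and 6.62% of all genes), and DESeq2 called 0. The sterol synthesis enzymes lay above 0 in 17 of 18 cases, with a median log2 fold change of 0.26 where that over all genes was 0.01 and 51.5% of all genes lay above 0. Without *Pax4* βiKO library 3 the enzymes' median was 0.12 with 12 of 18 above 0, so 1 library carried much of the shift. For 10 members the *Pax4* βiKO libraries were all above the controls (15.9% of all genes) and for 5 all below (16.7%). All 22 acinar markers had a log2 fold change below 0, with overlapping groups and 0 called, and the enzymes' median was 0.25 with the acinar level as a covariate. Endothelial markers were above 0 in 10 of 10 cases (5 higher without overlap, median 0.29), with sums of 348 and 350 CPM in control and 369 to 436 CPM in *Pax4* βiKO libraries. Of the alpha cell markers 5 of 7 were higher without overlap and 1 lower (median 0.23), of the macrophage markers 11 of 14 were above 0 (2 without overlap) and of the stromal markers 7 of 8 (2 without overlap). Of the 8 β-cell markers 4 were lower and 2 higher without overlap (median -0.27). Their sum was higher without overlap, at 120639 and 131505 CPM in control and 131651 to 137170 CPM in *Pax4* βiKO libraries. No marker of these lists was called, and their part in the shift was not tested.

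*Cyp51*, the lanosterol demethylase, was 62.9 and 68.0 CPM in control and 81.2, 88.4 and 96.9 CPM in *Pax4* βiKO libraries (log2 fold change 0.44, SE 0.10, edgeR adjusted p = 0.197). *Ebp* was 24.8 and 26.4 CPM in control and 35.05, 31.4 and 37.3 CPM in *Pax4* βiKO libraries (0.43, SE 0.11, adjusted p = 0.223). *Tm7sf2*, a sterol reductase, stood at 0.50 (adjusted p = 0.332) and *Fads2*, the Δ6 desaturase, at 0.40 (adjusted p = 0.411). In each of these 4 genes every *Pax4* βiKO library was above both controls.

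*Srebf2* was 41.5 and 35.6 CPM in control and 29.6, 27.0 and 28.9 CPM in *Pax4* βiKO libraries, without overlap (log2 fold change -0.43, SE 0.10, edgeR adjusted p = 0.210). *Abca1* was 266 and 229 CPM in control and 188, 202 and 156 CPM in *Pax4* βiKO libraries (-0.44, SE 0.13, adjusted p = 0.264). *Acaca* (-0.31, adjusted p = 0.244), *Stard4* (-0.32, adjusted p = 0.380) and *Scap* (-0.16, adjusted p = 0.483) were lower without overlap as well. *Stard4* was -0.18 without control library 1, and *Fads2* was 0.24 without *Pax4* βiKO library 3. *Srebf1* had a log2 fold change of -0.32 (95% interval -0.65 to 0.01), *Insig1* of 0.33 (-0.07 to 0.73) and *Insig2* of 0.12 (-0.11 to 0.35). These 3 values depended on single libraries, the controls most. Without control library 1 they were -0.065, 0.63 and 0.039, and without control library 2 they were -0.54, 0.075 and 0.21.

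**Figure D4:**
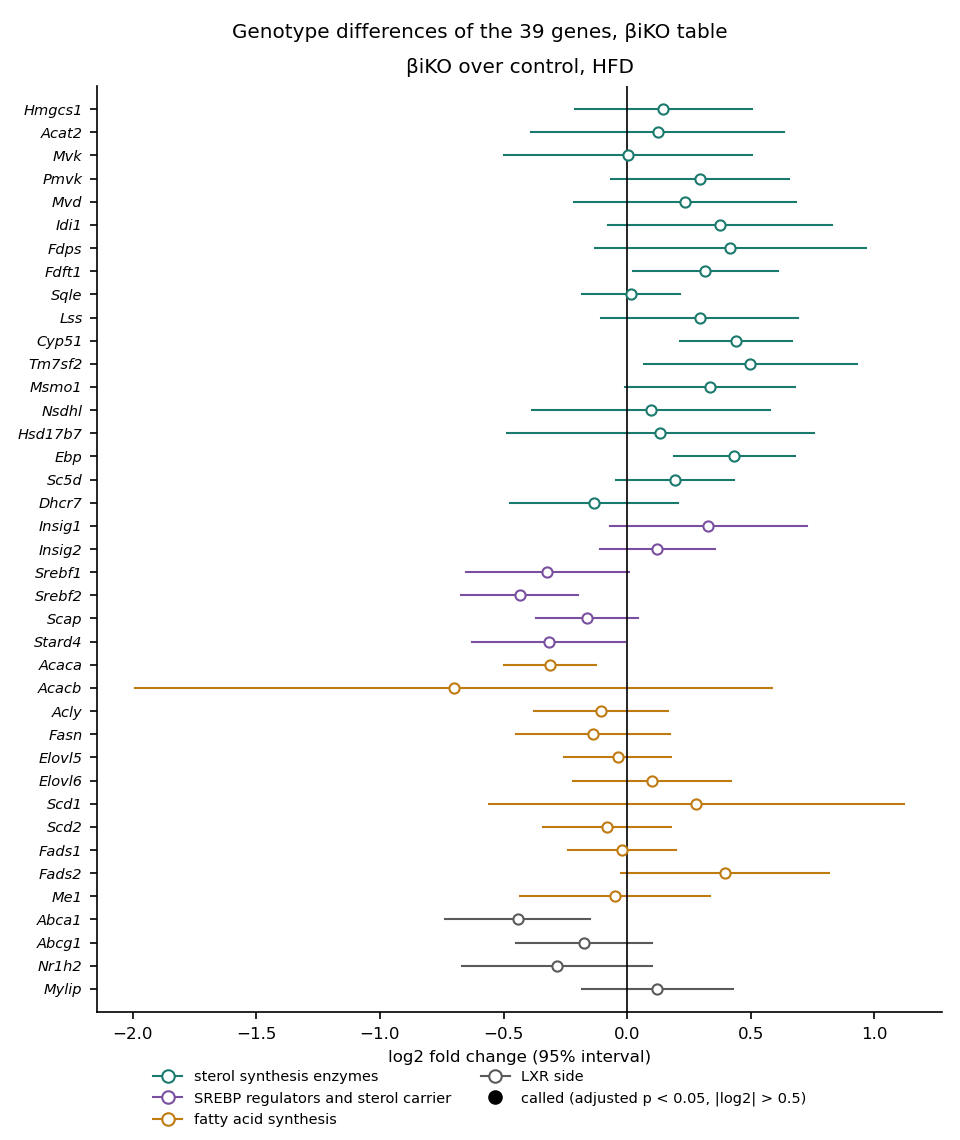
Log2 fold change of *Pax4* βiKO over control on HFD (horizontal axis) with its 95% interval for each of the 39 genes (listed vertically, coloured by role). No point is filled, since none passed the threshold, and 17 of the 18 sterol synthesis enzymes lie above 0.

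The genotype comparisons on HFD used separate libraries. Set side by side, *Acaca* and *Stard4* were lower without overlap in both *Pax4* R192H and *Pax4* βiKO islets, and *Ebp* was higher in both. Of the 18590 genes tested in both tables, 3.69% were lower and 5.09% higher without overlap in both. *Msmo1*, the methylsterol monooxygenase, and *Fads2* were lower without overlap in *Pax4* R192H islets and higher without overlap in *Pax4* βiKO islets, as were 0.334% of all genes. *Msmo1* was 61.1 ± 10.3 CPM in wildtype and 42.4 ± 2.88 CPM in *Pax4* R192H libraries (SD, n = 3 each, log2 fold change -0.53, edgeR adjusted p = 0.0745), and it was 117 ± 2.06 CPM in control (n = 2) and 148 ± 28.4 CPM in *Pax4* βiKO libraries (n = 3, log2 fold change 0.33, adjusted p = 0.400). Without *Pax4* βiKO library 3, at 179 CPM the highest, the latter was 0.18, and *Fads2* was 0.24 as given above. *Hmgcs1* and *Elovl5*, called lower in *Pax4* R192H islets, had log2 fold changes of 0.15 (95% interval -0.21 to 0.50) and -0.04 (-0.26 to 0.18) in *Pax4* βiKO islets. Without single libraries these values were 0.040 to 0.29 and -0.12 to 0.045, so the sign of the *Elovl5* value was not stable. The difference between the models was not tested.

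In some groups the sterol synthesis enzymes shared an order of libraries, which is given as a description. In SCD-fed wildtype islets library 2 was the lowest of its group for 18 of the 18 enzymes and library 1 the highest for 15, where these libraries were lowest and highest for 36.5% and 37.4% of all genes tested. *Fdps*, the farnesyl diphosphate synthase, was 52.0 CPM in library 1 and 25.2 and 25.8 CPM in libraries 2 and 3. HFD-fed wildtype library 2 was the highest of its group for 13 of 18 enzymes, and *Pax4* βiKO library 3 for 17 of 18 (32.1% and 36.9% of all genes). SCD-fed *Pax4* R192H library 3 was the lowest for 14 of 18 (37.8% of all genes). In HFD-fed *Pax4* R192H islets no library was the highest for more than 8 of the 18, and the control libraries were the highest for 8 and 10.

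**Figure D5:**
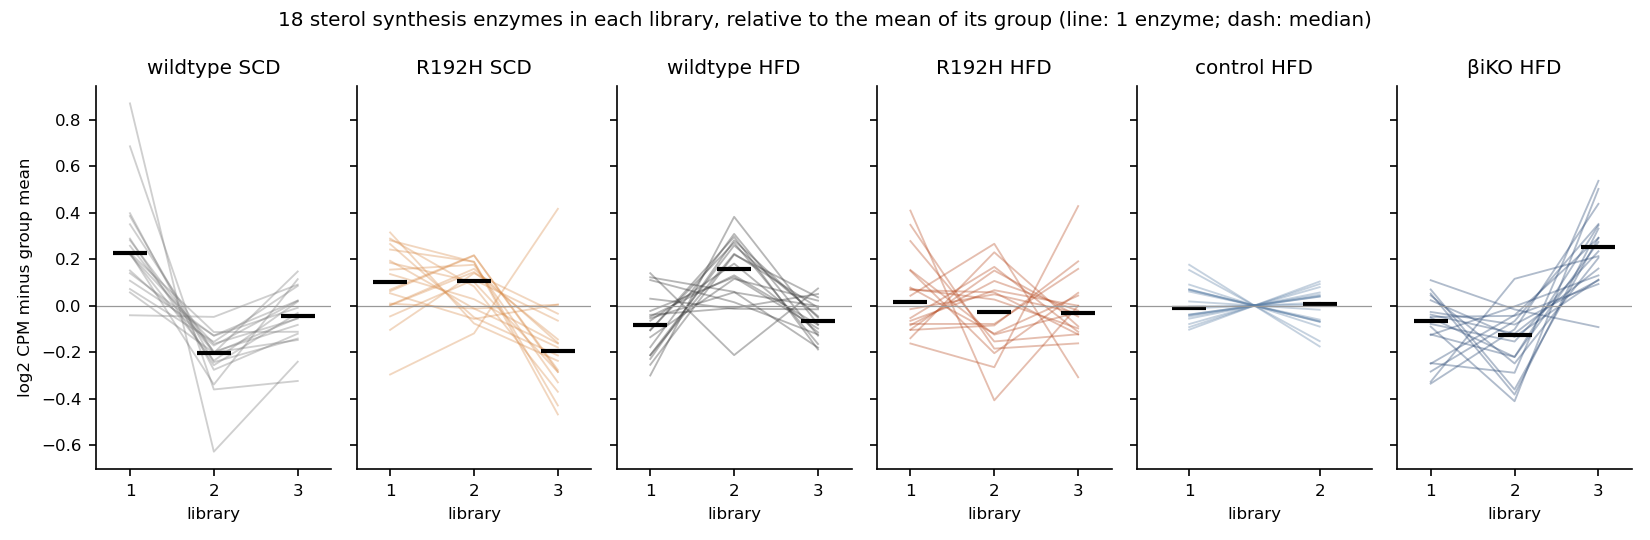
Log2 CPM of each of the 18 sterol synthesis enzymes minus the mean of its group (vertical axis) in each library (horizontal axis), by group. A line joins the values of 1 enzyme and the dash is the median over enzymes. The 18 enzymes are all lowest in library 2 of the SCD-fed wildtype group, and 17 are highest in library 3 of the *Pax4* βiKO group.

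A list of 42 further genes of sterol, SREBP and lipid handling held 41 tested genes. In HFD-fed *Pax4* R192H against wildtype islets 1 of them was called, *Vldlr*, the very low density lipoprotein receptor, which was lower (17.6 ± 0.985 CPM in *Pax4* R192H and 28.2 ± 6.35 CPM in wildtype libraries, SD, n = 3 each, log2 fold change -0.68, SE 0.15, edgeR adjusted p = 0.0344), beside 0.82% of all genes called lower. With the acinar covariate, which largely marks the HFD-fed *Pax4* R192H group, no gene was called in that comparison, *Vldlr* included. With diet in *Pax4* R192H islets 4 were called higher and 3 lower, beside 9.75% and 5.91% of all genes, and most calls of that comparison over all genes were lost with the acinar covariate, as given above. The higher ones were *Tmem97* (log2 fold change 1.08, adjusted p = 0.0288), *Nr1h3*, which encodes LXRα (1.03, adjusted p = 0.0125), *Elovl1* (1.00, adjusted p = 0.00899) and *Dhdds* (0.57, adjusted p = 0.00549). The lower ones were *Vldlr* (-0.89, adjusted p = 0.00197), *Lrp8* (-0.89, adjusted p = 0.0180) and *Mlxipl*, which encodes the carbohydrate response element-binding protein (-0.55, adjusted p = 0.0448). In the other 4 comparisons 0 of the 41 were called.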

How the data were processed

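Islet total RNA libraries (TruSeq Stranded Total RNA) were aligned by the authors with STAR 2.7.1 to mm10 and quantified with RSEM 1.3.3. Per gene, the authors deposited the expected counts that RSEM estimates. They were rounded to whole counts here. Identifiers were matched without version number to GENCODE M21, whose GRCm38 coordinates and exon lengths are given. The version numbers in the files differ from those of that release. Tools and builds are as the submitters' processing notes give them. The strand setting of the counting was not given in the sources used here, so members overlapping another gene (such as *Hmgcs1*, *Srebf2*, *Fdft1*, *Cyp51*, *Tm7sf2*, *Srebf1*, *Acaca*) are uncertain where reads were shared, as is *Acat2*, which has a near copy.

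Each table was fitted on all its groups with the quasi-likelihood test of edgeR 4.0.16 in R 4.3.3, with TMM scaling and genes kept by filterByExpr at a minimum count of 10 (19137 and 20167 genes). P-values were adjusted by Benjamini-Hochberg over all genes tested. A gene was called where its adjusted p was below 0.05 and its log2 fold change beyond 0.5 in size. Standard errors are the log2 fold change over the root of F. Each library counts as 1 replicate, and p-values measure the spread between libraries, since the number of animals behind each was not given in the sources used here. No 2 libraries agreed within sampling noise. The fit was tested on simulated data.

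Members and gene lists were chosen with earlier results of these data known. Genes named in each comparison were those called, the regulators *Srebf1*, *Srebf2*, *Scap*, *Insig1* and *Insig2* between genotypes, and up to 4 rising and 4 falling members without overlap between groups. Other members with values were chosen after their values were seen. Alternatives were DESeq2 1.42.0, RLE scaling, no count filter, no fold change minimum, a replicate block, an acinar marker covariate, removal of features over 10% of a library, a model of the 2 groups compared, and each library left out.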

Additional observations from a re-analysis of the deposited data

How the results depend on the processing

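Of 47 named log2 fold changes under 659 alternative values, 581 kept direction and side of the threshold, 43 lost the call, 14 gained it and 21 changed sign.

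In HFD-fed *Pax4* R192H against wildtype islets, where 3 members were called, 9 were called with no filter on low counts, 7 by DESeq2, 0 with the acinar marker covariate and 0 with the replicate block (*Elovl5* adjusted p = 0.0542, *Hmgcs1* 0.0549), and 0 to 5 without single libraries. Of all genes, 280 were called higher and 157 lower, against 789 and 490 with no filter, 617 and 303 by DESeq2, 93 and 54 with the block, 0 with the covariate, and 61 to 288 and 32 to 210 without single libraries (fewest without wildtype library 3). In *Pax4* βiKO islets these counts were 12 and 6, against 335 and 362 with no filter, 101 and 149 by DESeq2, 49 and 39 with the block, and 2 to 16 and 0 to 12 without single libraries. On SCD they were 0 and 0, against 116 and 145 with no filter and 5 and 18 by DESeq2. For the interaction they were 17 and 8, against 464 and 244, 212 and 99, 0 with the block or covariate, and 0 to 67 and 0 to 34 without single libraries. For diet in wildtype islets they were 39 and 32, against 283 and 641, 182 and 363, 10 and 12 with the block, 19 and 26 with the covariate, 0 and 1 with the model of the 2 groups, and 5 to 77 and 0 to 89 without single libraries. For diet in *Pax4* R192H islets they were 1865 and 1131, against 1995 and 1824 with no filter, 1998 and 1523 by DESeq2, 2033 and 1587 with the model of the 2 groups, 1532 and 815 with the block, 122 and 20 with the covariate, and 1169 to 1520 and 537 to 728 without single libraries. The interaction had 2 members with no filter (*Srebf2* and *Abca1*). Diet in wildtype islets had 1 member (*Scd1*) with no filter and 1 by DESeq2. Diet in *Pax4* R192H islets, where 7 were called, had 0 with the covariate, 6 with the block (*Abca1* lost, adjusted p = 0.0626), 8 by DESeq2, 10 with no filter or the model of the 2 groups, and 3 to 8 without single libraries, beside the counts over all genes in the same fits given above. The SCD and *Pax4* βiKO comparisons had 0 under every alternative, also without the library of highest acinar level in each *Pax4* βiKO table group, which was chosen after seeing the data. The cause of these moves was not tested.

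Among the named values counted above, the sign changes were in the regulators, at values near 0. On SCD *Srebf1* was 0.0030 in the model of the 2 groups and -0.14 to 0.18 without single libraries. *Srebf2* was -0.0053 with the block and -0.079 to 0.089 without single libraries, *Insig1* -0.26 to 0.072, and *Insig2* 0.0017 with the covariate and -0.12 to 0.098 without single libraries. On HFD *Scap* was -0.20 to 0.069 and *Insig2* -0.0052 to 0.12 without single libraries, and *Insig2* was -0.057 with the covariate. The interaction was -0.30 to 0.0041 for *Insig1* and -0.0067 to 0.21 for *Insig2* without single libraries, and -0.059 for *Insig2* with the covariate. In *Pax4* βiKO islets *Insig2* was -0.010 without the libraries of highest acinar level.

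In the first table the replicate numbers did not pair the libraries. Correlations of same-numbered libraries ranged from -0.30 to 0.19, and a library correlated best with its own number in 9 of 36 cases. In the second table the correlations of the 2 pairs were 0.073 and 0.038 and the own number was best in 4 of 4 cases, but 2 pairs with no stated link do not settle whether the numbers pair. *Pax4* βiKO library 3 has no control of its number, so the block also takes it out of the comparison. The sterol enzymes' median was 0.11 (12 of 18 above 0) with the block and 0.12 (12 of 18) without that library and with no block, where 16 genes were called higher and 12 lower, so the lower median cannot be put down to the block. No member was called in either fit. With 2 to 3 libraries a group, differences smaller than the intervals given could not be detected. In the second table no feature exceeded 10% of a library, so that alternative was not run there.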
